A study of Mus musculus with 6 samples.

Results

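The 49 genes described here encode the machinery of cell division: mitotic cyclins and kinases, the spindle checkpoint, the kinetochore, mitotic kinesins, the cytokinesis apparatus and the condensin complexes. They were taken by gene symbol from a table of 55536 mouse genes. They were chosen for their function, with earlier results of these data known. All 49 passed the filter on low counts, which left 18690 genes for testing, and the lowest count of any of them in any library was 679 reads. The samples were thymocytes of steady-state mice, sequenced as poly(A)-selected RNA. There were 3 mice that were wildtype at the gene for the alpha chain of the interleukin-3 receptor (Il3ra+/+) and 3 labelled as lacking this gene (Il3ra-/-), with 1 library from each mouse. No treatment is named, and the age, sex and strain of the mice, the way the deletion was made and the cells in which it acts do not appear in the labels. The comparison asks what differs in the thymus when interleukin-3 cannot signal through this receptor chain.

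Division is driven by cyclin A and cyclin B bound to the kinase Cdk1, which make chromosomes condense and the spindle form. Kinetochores, built on the centromere, tie each chromosome to spindle microtubules, and the spindle checkpoint holds back the anaphase-promoting complex until every kinetochore is attached. Once released, that complex marks cyclin B and securin for destruction, separase cuts the cohesin that joins sister chromatids, and kinesins and the midzone proteins then part the cell. Transcripts of these genes accumulate late in the cell cycle. In the thymus, dividing cells are found mainly among late double-negative cells and large double-positive blasts, while small double-positive and most single-positive thymocytes are at rest.

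The promoters of late cell-cycle genes are known for 2 short elements, and the sequences are shown as a description. Whether these elements bear on the difference between genotypes was not tested. One is the cell cycle genes homology region, with the core TTTGAA. The other is the CCAAT box. RefSeq promoter windows on GRCm38.p6, from 250 bases before to 50 bases after the start of the gene, were found for 42 of the 49 genes. TTTGAA was present on either strand in 33 of the 42 windows (78.6%), against 20.2% of the windows of 27025 genes. CCAAT was present in 30 (71.4%), against 41.1%. Both were present in 27 (64.3%), against 8.97%, and neither in 6 (14.3%), against 47.7%. The rarer core TTCGAA was in 3 of the windows (7.14%), against 1.80%. These are matches of letters and are not measured binding. In each stretch below, 150 bases are printed 5′ to 3′ on the strand of the gene, ending before the first annotated base of the gene. Capitals mark TTTGAA and CCAAT, which read TTCAAA and ATTGG where the match is on the other strand. The first 5 stretches hold both elements.
Top2a, chr11:99024190-99024339 on the reverse strand: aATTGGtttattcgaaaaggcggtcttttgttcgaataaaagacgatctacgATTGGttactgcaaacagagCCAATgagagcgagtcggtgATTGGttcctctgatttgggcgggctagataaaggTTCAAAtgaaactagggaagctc
Cdk1, chr10:69352939-69353088 on the reverse strand: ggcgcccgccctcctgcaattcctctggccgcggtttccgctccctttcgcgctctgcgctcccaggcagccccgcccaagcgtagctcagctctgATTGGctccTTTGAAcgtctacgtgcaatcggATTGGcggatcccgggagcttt
Kif11, chr19:37376232-37376381 on the forward strand: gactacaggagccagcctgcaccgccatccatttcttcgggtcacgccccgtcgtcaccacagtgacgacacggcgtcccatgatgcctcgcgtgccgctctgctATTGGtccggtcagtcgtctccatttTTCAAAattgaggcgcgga
Cdc20, chr4:118437353-118437502 on the reverse strand: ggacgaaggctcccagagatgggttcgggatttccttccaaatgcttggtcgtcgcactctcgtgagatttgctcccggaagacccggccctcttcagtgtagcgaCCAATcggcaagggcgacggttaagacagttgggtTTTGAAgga
Mki67, chr7:135716380-135716529 on the reverse strand: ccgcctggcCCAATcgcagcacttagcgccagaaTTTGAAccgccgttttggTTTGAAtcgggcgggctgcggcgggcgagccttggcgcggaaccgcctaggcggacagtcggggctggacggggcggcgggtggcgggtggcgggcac
Ncapg, chr5:45669769-45669918 on the forward strand: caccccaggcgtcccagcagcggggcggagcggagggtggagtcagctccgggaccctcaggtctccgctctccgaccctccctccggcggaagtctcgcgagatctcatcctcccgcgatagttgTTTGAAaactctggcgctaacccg
Ccnb1, chr13:100786571-100786720 on the reverse strand: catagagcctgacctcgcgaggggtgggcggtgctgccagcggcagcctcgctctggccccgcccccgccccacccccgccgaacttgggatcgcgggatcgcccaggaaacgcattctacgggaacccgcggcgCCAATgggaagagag
Mad2l1, chr6:66535071-66535220 on the forward strand: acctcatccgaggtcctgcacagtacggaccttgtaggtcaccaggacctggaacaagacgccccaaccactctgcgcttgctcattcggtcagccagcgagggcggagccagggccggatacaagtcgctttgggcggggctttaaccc
The Ncapg stretch holds TTTGAA alone, the Ccnb1 stretch CCAAT alone, and Mad2l1 neither element there or in its whole window. Ccnb1 had no TTTGAA in its whole window. The whole window of Ncapg also held CCAAT on the other strand, 176 bases before the start.

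The labels were checked first by the targeted gene. Il3ra itself was counted at 7.80, 6.51 and 6.11 CPM in wildtype and 7.95, 8.02 and 7.39 CPM in labelled knockout, where the 3 values of each genotype are given in the order of replicates 1, 2 and 3, here and throughout. CPM is a gene's read count scaled to a fixed library total, with library totals adjusted by the trimmed mean of M-values (TMM). Its mean was 6.81 ± 0.882 CPM in wildtype and 7.78 ± 0.346 CPM in labelled knockout (SD, n = 3 each), and the adjusted p was 0.585. The transcript was therefore not lower where the gene should be missing, and which exons the deletion removes is not given, so this gene does not check the labels. The libraries are called labelled knockout for this reason. Libraries held 55747682 to 82684219 assigned reads. Xist, the transcript of the silenced X chromosome, was high in replicate 1 of each genotype, with 88078 reads in wildtype and 128236 in labelled knockout, and at 8 to 57 reads in the other 4. The defining markers of thymocytes were present at high levels in all 6 libraries: Cd3e was at 405, 394 and 410.2 CPM in wildtype and 389, 337 and 325 CPM in labelled knockout, and Cd8a at 1732, 1756 and 1682 CPM in wildtype and 1653, 1526 and 1408 CPM in labelled knockout.

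The mitotic genes were at a higher level in the labelled knockout libraries nearly throughout, and none of them passed the test after adjustment over all genes. The fitted difference was positive for 48 of the 49 and negative for 1, Pttg1. The median fitted log2 fold was 0.55, a fold of 1.46, against a median log2 fold of 0.01 over all 18690 genes. In 34 of the 49 every labelled knockout library lay above every wildtype library, a pattern called separation here, against 10.9% of all genes tested. With edgeR's quasi-likelihood test, 46 of the 49 had an unadjusted p under 0.05 with a higher level, against 8.01% of all genes, and 0 had one with a lower level, against 6.6%. With Benjamini-Hochberg adjustment over all genes, 0 of the 49 were called, against 0.0161% of all genes called higher, and 17 genes were called in all, 3 of them higher. The members' adjusted p ranged from 0.138 for Ndc80 and Ncapg to 0.713 for Pttg1.

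How many genes passed after adjustment depended on the tool and on the filter. DESeq2 called 35 of the 49 higher, against 2.06% of all genes, with the lowest adjusted p, 0.00186, for Kif15. The edgeR test without the filter on low counts called 44, against 1.6% of the 33265 genes then tested. Limma-voom called 0 of the 49 higher, and 14 genes in all. The edgeR test with a filter of at least 1 CPM in 3 libraries also called 0 of the 49 higher, and 12 genes in all. All counts come from the same 6 libraries, so the 49 genes are not independent replicates of the difference. Each p-value sets the difference between genotypes against the variation among 3 mice per genotype, estimated with information from all genes tested.

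**Figure D1:**
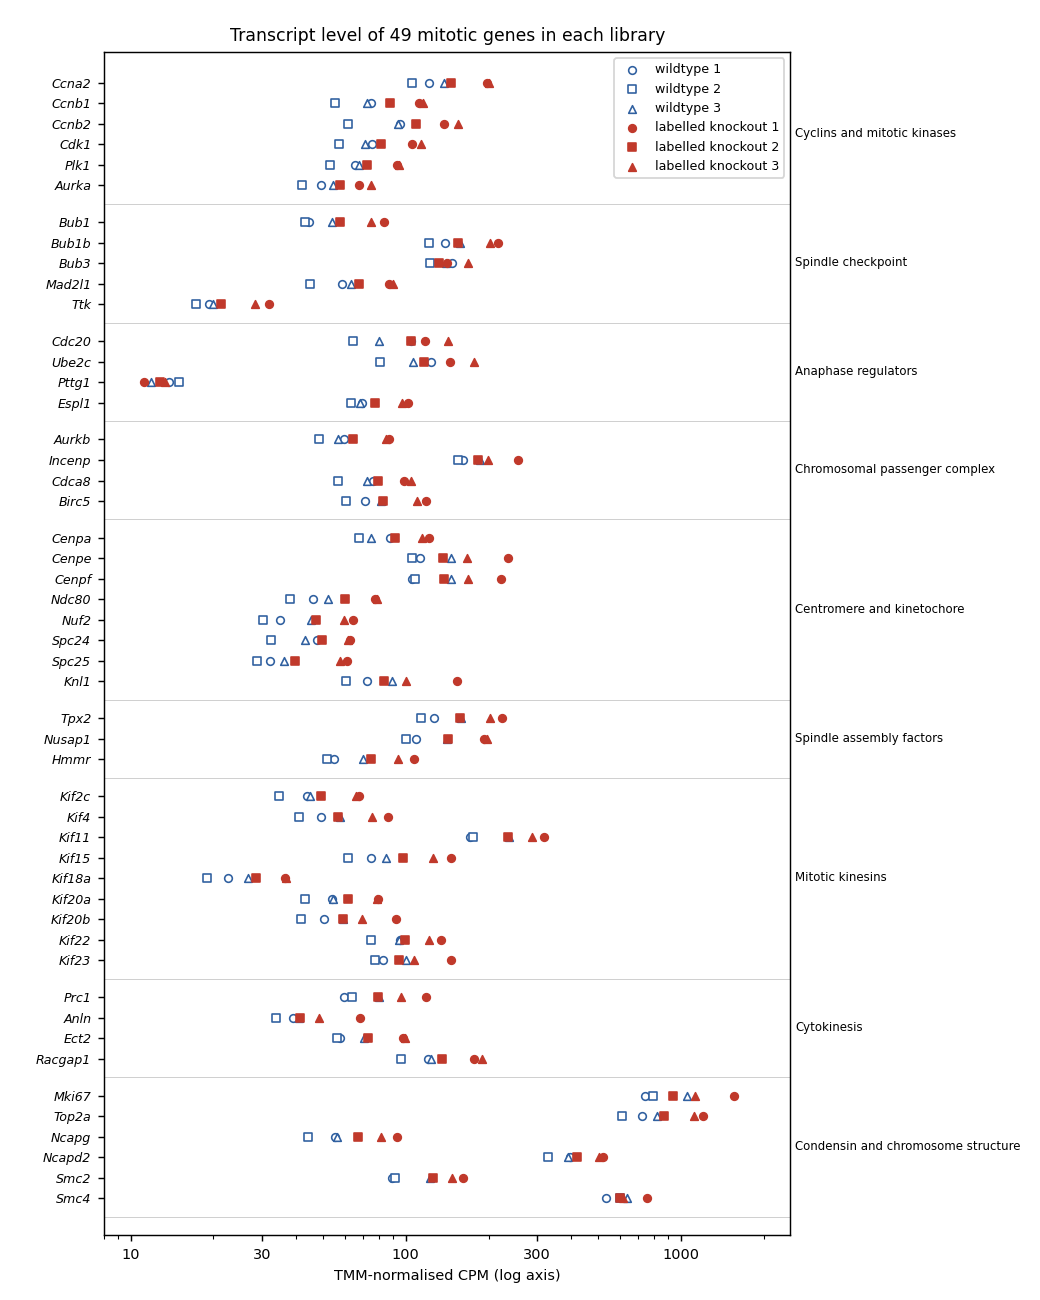
TMM-normalised CPM (log axis) of each of the 49 genes in each of the 6 libraries, grouped by role; open blue symbols are wildtype replicates and filled red symbols labelled knockout replicates. In 34 genes all 3 red symbols lie to the right of all 3 blue ones, and labelled knockout replicate 2, the red square, lies closest to the wildtype libraries.

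**Figure D2:**
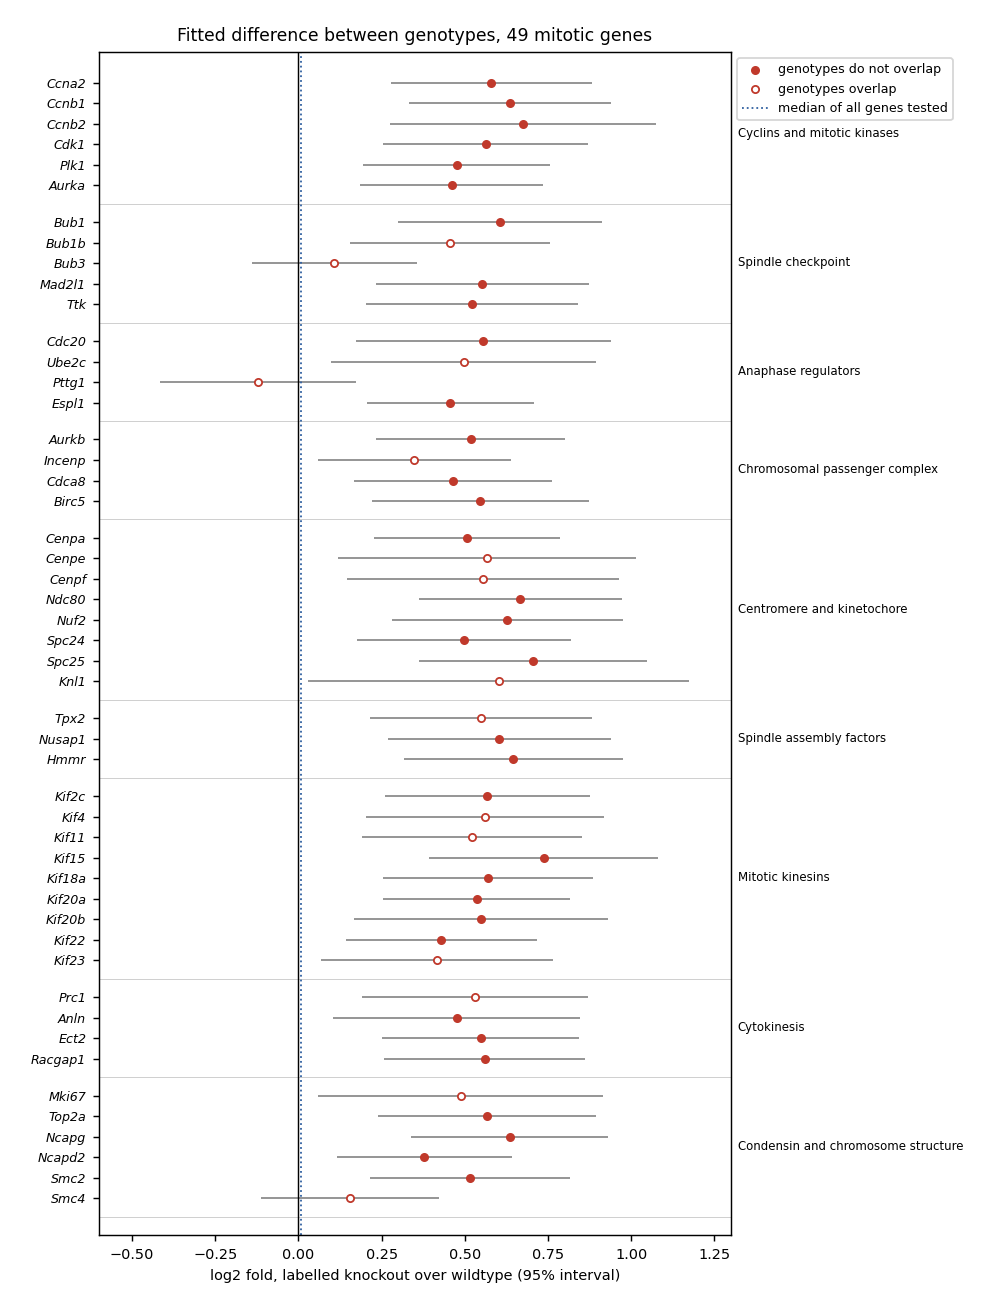
Fitted log2 fold, labelled knockout over wildtype, of each gene with its 95% interval; filled points mark genes whose libraries do not overlap between genotypes, and the dotted line is the median of all genes tested. The points of 48 genes lie above 0, and the intervals of Bub3, Pttg1 and Smc4 include 0.

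All 6 cyclin and kinase genes separated the genotypes, with a median log2 fold of 0.57. Ccnb1, which encodes cyclin B1, the partner that brings Cdk1 into mitosis, was at 75.0, 55.5 and 72.3 CPM in wildtype and 112, 87.8 and 115 CPM in labelled knockout. The lowest labelled knockout library was above the highest wildtype library. The fitted difference was 1.55-fold (95% interval 1.26 to 1.92), with an adjusted p of 0.139 by edgeR's quasi-likelihood test. Ccna2, which encodes cyclin A2 of S phase and early mitosis, was at 122, 106 and 137 CPM in wildtype and 198, 146 and 201 CPM in labelled knockout. The groups again did not overlap, and the fitted difference was 1.49-fold (95% interval 1.21 to 1.84). Ccnb2 (cyclin B2) had the highest fold of the group, 1.60. Cdk1, the central mitotic kinase, stood at 1.48-fold, Plk1, a kinase of centrosome maturation and mitotic entry, at 1.39-fold and Aurka, the spindle pole kinase, at 1.38-fold.

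Among the 5 spindle checkpoint genes, 4 had an unadjusted p under 0.05 and 3 separated the genotypes. Bub1, a kinase that recruits checkpoint proteins to the kinetochore, was at 44.5, 43.2 and 53.8 CPM in wildtype and 83.1, 57.7 and 74.6 CPM in labelled knockout. Its groups did not overlap, with a fitted difference of 1.52-fold (95% interval 1.23 to 1.88) and an adjusted p of 0.151 by edgeR. Mad2l1, which encodes the Mad2 protein that inhibits Cdc20, was at 58.7, 44.7 and 63.1 CPM in wildtype and 87.2, 67.6 and 89.5 CPM in labelled knockout. The groups did not overlap, although labelled knockout replicate 2 lay just above wildtype replicate 3. Ttk, which encodes the upstream checkpoint kinase Mps1, was 1.44-fold higher and also separated. Bub1b, which encodes BubR1 of the mitotic checkpoint complex, was 1.37-fold higher, with labelled knockout replicate 2 below wildtype replicate 3. Bub3, the partner of Bub1 and BubR1, was the exception. Bub3 (GRCm38 chromosome 7, 131560222 to 131571895, forward strand) stood at 148, 123 and 139.8 CPM in wildtype and 141, 132 and 169 CPM in labelled knockout, and the libraries of both genotypes were interleaved. Its fitted difference was 1.08-fold (95% interval 0.91 to 1.28).

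The 4 anaphase regulators were the least uniform group. Cdc20, the activator through which the anaphase-promoting complex acts at the metaphase to anaphase transition, was at 104, 64.3 and 79.6 CPM in wildtype and 117, 105 and 143 CPM in labelled knockout. Wildtype replicate 1 was nearly level with the lowest labelled knockout library, and the fitted difference was 1.47-fold (95% interval 1.13 to 1.92). Espl1, which encodes separase, was at 69.5, 63.3 and 68.4 CPM in wildtype and 102, 77.0 and 97.2 CPM in labelled knockout. The wildtype libraries were close together and all below the labelled knockout, with a fitted difference of 1.37-fold (95% interval 1.15 to 1.63). Ube2c, the ubiquitin-conjugating enzyme of the complex, was 1.41-fold higher with overlapping groups. Pttg1, which encodes securin, the inhibitor of separase, lies on GRCm38 chromosome 11, 43420250 to 43426251, reverse strand, and was at 13.8, 15.0 and 11.8 CPM in wildtype and 11.2, 12.8 and 13.3 CPM in labelled knockout. It was the lowest of the 49 genes in CPM and the only one with a fitted difference below 1, at 0.92-fold (95% interval 0.75 to 1.13). The lowest library of Pttg1 was labelled knockout replicate 1, which was the highest library for 32 of the 49 genes.

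All 4 genes of the chromosomal passenger complex, which corrects faulty attachments and later marks the spindle midzone, had an unadjusted p under 0.05. Aurkb, the kinase of the complex, was at 59.5, 48.3 and 56.7 CPM in wildtype and 86.8, 64.2 and 84.7 CPM in labelled knockout. Every labelled knockout library was above every wildtype library, with a fitted difference of 1.43-fold (95% interval 1.18 to 1.74). Birc5, which encodes survivin, was at 71.1, 60.4 and 81.6 CPM in wildtype and 119, 82.5 and 110.0 CPM in labelled knockout. Labelled knockout replicate 2 and wildtype replicate 3 were nearly level, and the fitted difference was 1.46-fold (95% interval 1.17 to 1.83). Cdca8 (borealin) was 1.38-fold higher and separated. Incenp, the scaffold, was 1.27-fold higher with overlapping groups.

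The 8 centromere and kinetochore genes all had an unadjusted p under 0.05, with a median log2 fold of 0.58. The 4 genes of the Ndc80 complex, the microtubule-binding rod of the outer kinetochore, each separated the genotypes. Ndc80 (GRCm38 chromosome 17, 71496100 to 71526857, reverse strand) was at 46.0, 38.0 and 52.1 CPM in wildtype and 77.5, 59.9 and 78.6 CPM in labelled knockout, a fitted difference of 1.59-fold (95% interval 1.29 to 1.96) with an adjusted p of 0.138 by edgeR. Spc25 was at 32.0, 28.9 and 36.0 CPM in wildtype and 60.9, 39.6 and 57.4 CPM in labelled knockout, and its fitted difference was 1.63-fold (95% interval 1.28 to 2.07). In both genes labelled knockout replicates 1 and 3 were close together and replicate 2 was lower, still above all wildtype libraries. Nuf2 was 1.55-fold and Spc24 1.41-fold higher, and Cenpa, the histone H3 variant that marks centromeres, 1.42-fold higher. Cenpe, a plus-end-directed kinetochore motor, and Cenpf, a large protein of the outer kinetochore, had folds of 1.48 and 1.47 and overlapping groups. Knl1, the kinetochore scaffold for Bub1, had a fold of 1.52, also with overlapping groups. Knl1 was at 72.4, 60.7 and 89.4 CPM in wildtype and 154, 83.2 and 100.3 CPM in labelled knockout, and its standard error of 0.24 on the log2 scale was the largest of the 49.

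The 3 spindle assembly factors and the 9 mitotic kinesins all had an unadjusted p under 0.05. Hmmr, a microtubule-associated protein of spindle poles, was at 54.7, 51.6 and 69.7 CPM in wildtype and 107, 74.6 and 93.4 CPM in labelled knockout, with no overlap and a fitted difference of 1.56-fold (95% interval 1.25 to 1.96). Nusap1, which bundles microtubules around chromosomes, was at 109, 101 and 141 CPM in wildtype and 193, 143 and 197 CPM in labelled knockout. Its labelled knockout replicate 2 was barely above wildtype replicate 3, and the fitted difference was 1.52-fold (95% interval 1.20 to 1.92). Tpx2, the activator of Aurora A, was 1.46-fold higher with overlapping groups. Among the kinesins, Kif15, a motor that holds the poles of the bipolar spindle apart (GRCm38 chromosome 9, 122951046 to 123018733, forward strand), was at 74.9, 61.8 and 84.9 CPM in wildtype and 146, 97.8 and 125 CPM in labelled knockout. It had the largest fold of the 49 genes, 1.67-fold (95% interval 1.31 to 2.11), with no overlap. Kif20a, a motor of the midzone, was at 53.8, 43.0 and 54.3 CPM in wildtype and 79.1, 61.5 and 78.5 CPM in labelled knockout, also with no overlap and a fitted difference of 1.45-fold (95% interval 1.19 to 1.76). Kif2c, which depolymerises microtubules at centromeres, Kif18a, which limits chromosome oscillation, and Kif22, a chromosome arm motor, separated the genotypes at 1.48-fold, 1.48-fold and 1.35-fold. Kif20b also separated them, at 1.46-fold, with labelled knockout replicate 2 barely above wildtype replicate 3 (59.2 against 59.1 CPM). Kif11, the motor that pushes spindle poles apart, Kif4 and Kif23 had folds of 1.43, 1.47 and 1.33 and overlapping groups.

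All 4 cytokinesis genes had an unadjusted p under 0.05. Racgap1, which with Kif23 forms the centralspindlin complex, was at 120.4, 96.0 and 123 CPM in wildtype and 176, 135 and 189 CPM in labelled knockout. The genotypes did not overlap, and the fitted difference was 1.47-fold (95% interval 1.20 to 1.81). Ect2, the exchange factor that activates RhoA at the cleavage furrow, was at 57.7, 56.5 and 70.3 CPM in wildtype and 97.6, 72.7 and 99.5 CPM in labelled knockout. It too separated the genotypes, with a fitted difference of 1.46-fold (95% interval 1.19 to 1.79). Anln, the anillin scaffold of the contractile ring, was 1.39-fold higher with labelled knockout replicate 2 close to wildtype replicate 3. Prc1, which bundles midzone microtubules, was 1.44-fold higher with overlapping groups.

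Among the 6 genes of condensin and chromosome structure, 5 had an unadjusted p under 0.05 and 4 separated the genotypes. Top2a, the topoisomerase that untangles sister chromatids, was at 721, 609.6 and 821 CPM in wildtype and 1205, 865 and 1115 CPM in labelled knockout. The groups did not overlap, and the fitted difference was 1.48-fold (95% interval 1.18 to 1.86) with an adjusted p of 0.159 by edgeR. Ncapg, a condensin I subunit, was at 55.4, 44.0 and 56.1 CPM in wildtype and 92.8, 67.2 and 81.5 CPM in labelled knockout. All its labelled knockout libraries were above all wildtype libraries, with a fitted difference of 1.55-fold (95% interval 1.26 to 1.91). Ncapd2, another condensin I subunit, was 1.30-fold higher, and Smc2, a core ATPase of both condensins, 1.43-fold higher, each with no overlap. Smc4, the partner of Smc2 (GRCm38 chromosome 3, 69004738 to 69034623, forward strand), was at 533, 602 and 634 CPM in wildtype and 753, 601 and 614 CPM in labelled knockout. Its genotypes overlapped, and its fitted difference was 1.11-fold (95% interval 0.92 to 1.34). Mki67, which encodes the coat protein of mitotic chromosomes used as the proliferation marker Ki-67, was at 737, 794 and 1051 CPM in wildtype and 1560.5, 937 and 1121 CPM in labelled knockout. Labelled knockout replicate 1 was far above the rest and replicate 2 was below wildtype replicate 3. The fitted difference of Mki67 was 1.40-fold (95% interval 1.04 to 1.89), and its adjusted p by edgeR was 0.287.

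The separation of genotypes was not the same in every library. Labelled knockout replicate 1 was the highest of the 6 libraries for 32 genes and replicate 3 for 16. Labelled knockout replicate 2 was the lowest of its genotype for 48 of the 49. Wildtype replicate 2 was the lowest of the 6 libraries for 42. Labelled knockout replicates 1 and 3 were both above all wildtype libraries for 46 genes. That count sets labelled knockout replicate 2 aside. The shares over all genes were not computed for these counts by library. Of the 15 genes that did not separate, 13 had labelled knockout replicate 2 below wildtype replicate 3. The members' summed level was 5850, 5295 and 6744 CPM in wildtype and 9594, 6852 and 8529.8 CPM in labelled knockout. The lowest labelled knockout library thus exceeded the highest wildtype library only slightly. Mki67, Top2a and Smc4 made up the largest parts of these sums. They were at 1051, 821 and 634 CPM in wildtype replicate 3 and 937, 865 and 601 CPM in labelled knockout replicate 2. The mean log2(CPM + 0.5) of the 49 genes, minus its mean over the 6 libraries, was -0.09 and -0.01 in these libraries. In bulk RNA, fewer or more dividing cells and less or more of these transcripts in each dividing cell cannot be told apart.

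Within each class of library by Xist, the difference pointed the same way for nearly all of the genes. Between the Xist-high libraries, with 1 mouse of each genotype and no test, 47 of 49 genes were higher in labelled knockout, by a median of 1.62-fold. The median log2 ratio of these libraries was 0.70 for the 49 genes. Over all genes tested it was -0.003, with 0.5 added to each CPM. Between the Xist-low libraries, with 2 mice of each genotype, 47 of 49 were fitted higher and the median log2 fold was 0.46. Among these, 32 had an unadjusted p under 0.05, against 14.2% of the 19127 genes tested, and 2, Cdc20 and Cenpa, were called higher after adjustment by edgeR, against 2.06% of all genes. Cdc20 had a log2 fold of 0.78 there and an adjusted p of 0.0469, and Cenpa 0.53 and 0.0456. Mki67 had a log2 fold of 0.16, Cenpe of 0.28, Cenpf of 0.27 and Knl1 of 0.29 in the Xist-low libraries, where they had 0.49, 0.57, 0.55 and 0.60 over all 6.

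These 4 genes have long transcripts, but the lower folds in the Xist-low libraries did not follow length in every gene. Prc1 (3026 bases) had a log2 fold of 0.29 there and 0.53 over all 6, and Kif23 (3398 bases) 0.18 and 0.42. The longer Mad2l1 (7557 bases) had 0.54 and 0.55, and Espl1 (6658 bases) 0.40 and 0.46. Long and short transcripts differed in their ratios between libraries of the same genotype. The ratio of labelled knockout replicate 1 to replicate 3 increased with the length of the principal transcript across the 49 genes (Spearman's rho 0.58, across genes that share the same libraries and are not independent). Over 11390 genes with a mean of at least 1 CPM the coefficient was 0.31. Where a gene has several principal transcripts, the longest was taken. The 21 mitotic genes with transcripts under 3000 bases had a median log2 ratio of -0.03, and the 9 with 5000 bases or more had 0.40. Wildtype replicate 3 over replicate 1 showed a like pattern, with a rho of 0.57 over the 49 genes, 0.37 over the 11390, and medians of -0.02 and 0.30. Across these 49 genes the ratio of the genotype means had a rho of 0.09 with length, and over 11392 genes it had -0.13. Median log2 folds between genotypes were 0.52 for the short transcripts and 0.55 for the long ones. The part of this length pattern in the overlap of Mki67, Cenpe, Cenpf and Knl1 was not tested.

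**Figure D3:**
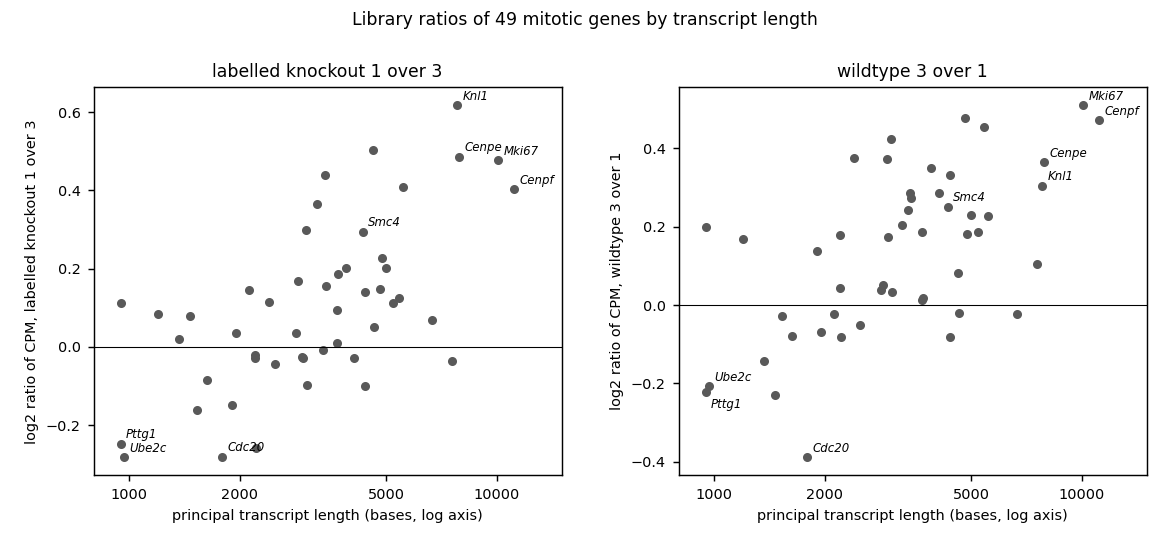
Log2 ratio of CPM between 2 libraries of one genotype (y axis) against the length of the principal transcript in bases (x axis, log scale) for the 49 genes, with labelled knockout replicate 1 over 3 on the left and wildtype replicate 3 over 1 on the right. Long genes such as Cenpf and Mki67 lie above 0 and the short Ube2c, Pttg1 and Cdc20 below 0 in both panels. The short Birc5, at 947 bases, lies above 0 in both.

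Levels between genes were compared per length, as mean CPM over the 6 libraries per 1000 bases of the principal transcript. Top2a was highest at 170.4, then Smc4 at 144, Ube2c at 129 and Mki67 at 103. Ttk at 7.99, Kif18a at 8.41 and Mad2l1 at 9.06 were lowest. The rank of Mad2l1 rests on the 7557 bases of its longest principal transcript.

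The 108 other genes of mitosis, drawn from 6 lists, were mostly fitted higher as well, 95 of them, with 13 fitted lower. Of them 67 had an unadjusted p under 0.05 with a higher level and 1 with a lower level. The shares over all genes tested were 8.01% and 6.6%. None was called after adjustment by edgeR, and the median log2 fold was 0.38. Among 28 other kinetochore subunits 20 had a higher level at an unadjusted p under 0.05, with a median log2 fold of 0.49. Dsn1, of the Mis12 complex, was at 17.7, 16.6 and 19.6 CPM in wildtype and 30.6, 23.6 and 28.4 CPM in labelled knockout. Cenph, of the inner kinetochore, was at 9.37, 6.51 and 7.83 CPM in wildtype and 15.8, 11.2 and 14.8 CPM in labelled knockout, and neither gene's groups overlapped. Among 24 other spindle and midzone genes the count was 18 and the median log2 fold 0.47. Cep55, which acts in the final cut between daughter cells, was at 23.8, 21.9 and 28.3 CPM in wildtype and 45.7, 29.8 and 40.7 CPM in labelled knockout, and Ckap2, a microtubule-associated protein, at 28.5, 26.2 and 33.2 CPM in wildtype and 55.1, 34.9 and 47.7 CPM in labelled knockout.

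Among 23 regulators of mitotic entry and exit 18 had a higher level at an unadjusted p under 0.05, with a median log2 fold of 0.49. Cks2, a small partner of cyclin-dependent kinases, was at 38.6, 34.9 and 45.5 CPM in wildtype and 67.9, 50.6 and 65.1 CPM in labelled knockout, and Pimreg at 26.9, 17.2 and 20.4 CPM in wildtype and 40.9, 30.9 and 42.0 CPM in labelled knockout. Of 4 other condensin subunits 3 had a higher level at an unadjusted p under 0.05, with Ncapg2 at a log2 fold of 0.57 and Ncaph at 0.49. The cohesin and shugoshin list was mixed, with 6 of 14 and a median log2 fold of 0.13. Its members of smallest p were Cdca5, the sororin that stabilises cohesion, at a log2 fold of 0.51, and Sgo1, the protector of centromeric cohesin, at 0.64. Of 15 core subunits of the anaphase-promoting complex 2 were higher and 1 lower at an unadjusted p under 0.05. Over all genes tested 8.01% were higher and 6.6% lower, and these counts lie near those shares. The median log2 fold of the list was 0.10. Anapc16 was the lower one, at 57.5, 66.2 and 67.2 CPM in wildtype and 47.3, 55.4 and 56.3 CPM in labelled knockout. Every labelled knockout library was below every wildtype library, as in 1753 of the 18690 genes tested. Anapc13 was at 13.0, 12.6 and 13.1 CPM in wildtype and 17.8, 14.3 and 15.1 CPM in labelled knockout. It was higher in every labelled knockout library, as were 10.9% of all genes tested.

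**Figure D4:**
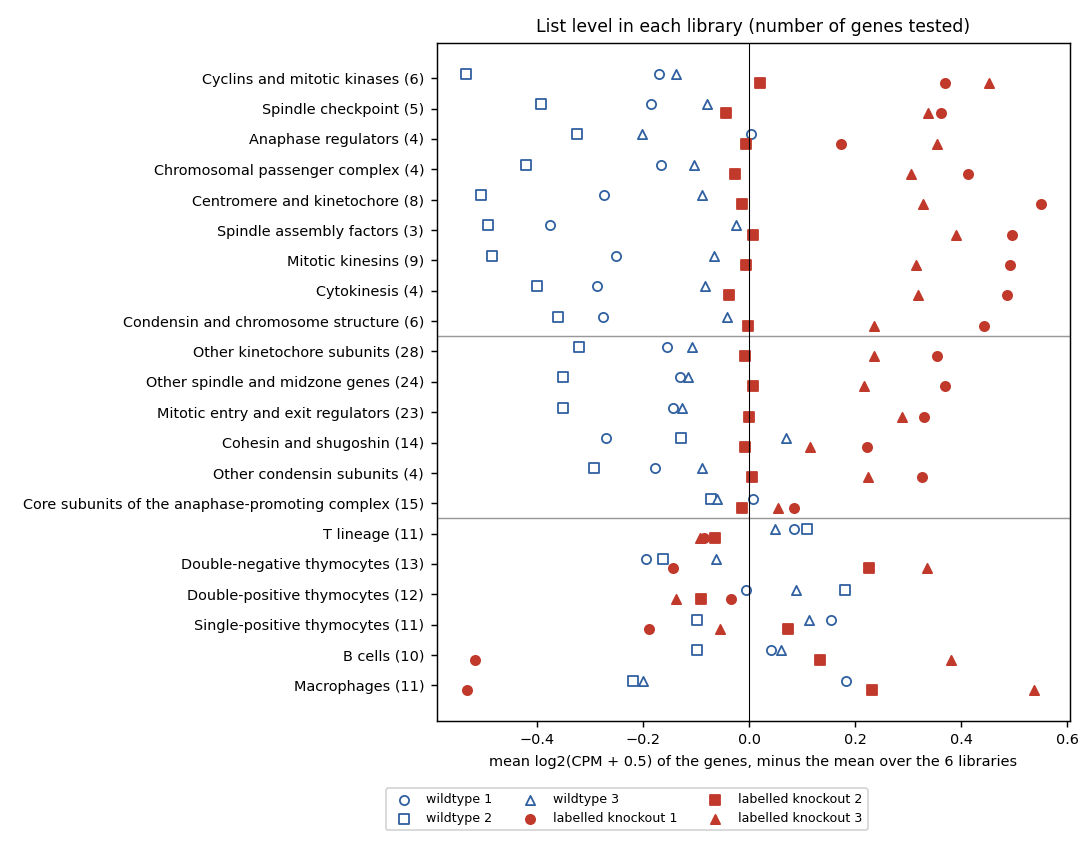
Mean log2(CPM + 0.5) of the genes of each list in each library, minus the mean over the 6 libraries; the top block holds the 9 groups of the 49 genes, the middle block the 6 lists of other mitotic genes and the bottom block cell type markers, with the number of genes tested in brackets. In 8 of the 9 groups of the top block all red symbols lie to the right of all blue ones, the exception being the anaphase regulators. The T lineage and the double-positive thymocyte lists lie the other way.

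The levels of other lists of genes are given beside these, without a test of any list. Over all genes tested, 8.01% were higher and 6.6% lower at an unadjusted p under 0.05. Of 18 genes of origin licensing and the replicative helicase, 17 had a higher level at an unadjusted p under 0.05, with a median log2 fold of 0.47. The summed level of 12 double-positive thymocyte markers ranged from 10896 to 12373 CPM in wildtype and from 9893 to 10449 CPM in labelled knockout, with 5 lower at an unadjusted p under 0.05. That of 11 T lineage genes ranged from 12561 to 13156 CPM in wildtype and from 11507 to 11551 CPM in labelled knockout, with 3 lower. Among 13 double-negative markers 4 were higher and 1 lower, and the sums were 479 to 527 CPM and 517 to 588 CPM. Of these 13, 12 were fitted higher and 1 lower. The largest part of the sums was Notch1, at 245, 274 and 269 CPM in wildtype and 274, 282 and 287 CPM in labelled knockout. Among 11 single-positive markers 0 were higher and 4 lower, with sums of 880 to 994 CPM and 782 to 917 CPM. Median log2 folds were 0.37 for the double-negative, -0.19 for the double-positive, -0.15 for the T lineage and -0.18 for the single-positive list.

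Markers of cells other than thymocytes were counted in the same way. Of 10 B cell markers 0 had an unadjusted p under 0.05 in either direction, with sums of 638 to 811 CPM in wildtype and 598 to 724 CPM in labelled knockout. Of 11 macrophage markers the count was also 0, with sums of 95.5 to 129.8 CPM and 73.3 to 231 CPM. Among 10 dendritic cell markers 1, Ccr9, which thymocytes also express, was lower, with sums of 825 to 922 CPM and 614 to 763 CPM. These sums were mostly Ccr9, at 800, 768 and 872 CPM in wildtype and 570, 692 and 590 CPM in labelled knockout. Of the 10 dendritic cell markers, 6 were fitted higher and 4 lower. Of 7 tested erythroid markers 0 passed that level, of 8 thymic epithelial markers 1 was higher, and of 7 endothelial and stromal markers 2 were higher. Sums of the epithelial and the stromal list were 39.7 to 54.8 CPM and 124.6 to 128 CPM in wildtype, and 53.4 to 56.6 CPM and 124.4 to 133 CPM in labelled knockout. The stromal sums were mostly Pecam1, at 117 to 120 CPM in wildtype and 115 to 120 CPM in labelled knockout. The B cell sums were mostly Ighm, at 579 to 752 CPM in wildtype and 536 to 645 CPM in labelled knockout. No marker listed in the table of counts was at 0 in all libraries, and Slc4a1, Foxn1, Col1a2 and Pdgfra were among those at 0 in some. The part of these differences in the level of the mitotic genes was not tested.

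Genes with and without the promoter elements had similar median differences between genotypes, given here without a test. The 33 genes with TTTGAA in the window had a median log2 fold of 0.53, with 23 separating the genotypes. The 9 without it (Ccnb1, Bub1, Mad2l1, Pttg1, Birc5, Cenpe, Nuf2, Nusap1 and Kif18a) had a median of 0.57, with 7 separating. Pttg1 had neither element and Bub3 had both, and both genes lay near no change. In 30 of the 33 genes with TTTGAA a match lay after the start or within 50 bases before it.

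Counting may blur some members. Exons of 14 of the 49 genes share bases with another annotated gene, and the sources used here do not say whether reads were counted by strand. The largest share was 29.3% of the exon length of Kif20a, with Cdc23 on the opposite strand, followed by 22.8% of Ube2c with Tnnc2. Tnnc2 was counted at 8 reads over the 6 libraries, Cdc23 at 22658.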

How the data were processed

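RNA of thymocytes was isolated with a column kit and made into stranded, poly(A)-selected libraries, per the labels' protocols. The submitters' processing notes name the aligner STAR 2.5.4b, the counter featureCounts and the build GRCm38. The deposited values are raw, whole-number counts per Ensembl gene with no normalisation. The sources used here do not state the annotation, whether counting was by strand, or how reads with several places were counted. Libraries held 55747682 to 82684219 counts.

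All 55536 identifiers were matched to GENCODE M21. Genes were filtered with filterByExpr, scaled by TMM and tested with edgeR 4.0.16 (robust quasi-likelihood fit, 6 libraries, no covariate, R 4.3.3), with Benjamini-Hochberg adjustment over 18690 genes and a threshold of 0.05. The biological coefficient of variation was 18.7%. Intervals are 95% intervals of the fit. The scripts were tested on simulated data. The alternatives were DESeq2 1.42.0, limma-voom 3.58.1, other scalings and filters, the replicate block, the Xist-low libraries alone and each library left out. No 2 libraries of a genotype agreed within sampling noise (the chi-square over its degrees of freedom was 40.7 to 96.4), so none was treated as a library deposited more than once.

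Values per library are given for Mki67, Top2a and, in each of the 9 groups, the 2 genes of smallest unadjusted p, and up to 2 such genes are named in each other list. Knl1, and the 3 genes that missed an unadjusted p of 0.05 (Bub3, Pttg1 and Smc4), were added after their values were seen. Members and lists were chosen with earlier results of these data known.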

Additional observations from a re-analysis of the deposited data

How the results depend on the processing

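The number of genes called between genotypes, 17 with edgeR, was 604 with DESeq2, 840 without the filter on low counts, 9 with the replicate block and 762 with the Xist-high libraries left out, and 8 to 29 when 1 library was left out (8 without wildtype replicate 2, 29 without labelled knockout replicate 1). The number of mitotic genes called, 0 in the fit reported, was 35 with DESeq2, 44 without the filter and 2 with the Xist-high libraries left out, and 0 to 1 when 1 library was left out. The 1 gene was Spc25, without labelled knockout replicate 2. In 12 of the 16 alternatives the number of mitotic genes called was 0. The number with an unadjusted p under 0.05 was 32 to 46, and the median log2 fold was 0.44 to 0.68, over all 16 alternatives. Of 784 values of single genes under these alternatives, 700 kept their direction and side of the threshold, 82 passed the threshold and 2 turned: Bub3, at -0.00149 without labelled knockout replicate 3 and 0.18 at most when 1 library was left out (log2 scale), and Smc4, at -0.025 with the Xist-high libraries left out. The cause was not tested. The share of promoters with TTTGAA was 33.3% in the 120 bases before the start, against 8.28% of all genes. The count of other mitotic genes with an unadjusted p under 0.05 was 49 to 69, by alternatives applied to it after the data were seen.

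Replicate numbers were not shown to pair the libraries. Same-numbered libraries deviated from their group means with correlations of -0.10, 0.07 and -0.12, and 2 of 6 libraries correlated best with their own number. With the replicate block, 9 genes and 0 mitotic genes were called.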
